A study of Mus musculus with 96 samples.

Results

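The cortical thick ascending limb (CTAL) and the cortical collecting duct (CCD) are neighbouring tubules of the kidney cortex with different transport tasks, and they were compared here directly. The members are the microdissected samples that carry either segment's name, 15 of the 93 microdissected samples of the series. They come from 10 of its 53 mice, 5 for CTAL (8 pieces of tubule) and 5 for CCD (7 pieces). The animals were male C57BL/6 mice aged 6 to 8 weeks, fed normal chow with free access to water, and the labels give no treatment, transgene or other genotype for any group. Pieces of tubule were dissected by hand, and polyadenylated RNA was sequenced from each piece after amplification of the cDNA. Mouse numbers are given within a segment, and the series counts 1 mouse for each number and segment, so CTAL mouse 1 and CCD mouse 1 were treated as separate animals. No source says whether the mice were littermates or were dissected on 1 day.

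The thick limb takes up sodium, potassium and chloride through the cotransporter NKCC2 (Slc12a1), recycles potassium into the lumen and passes chloride out through basolateral channels, while water cannot follow. The resulting positive lumen drives calcium and magnesium between the cells. The collecting duct is a mosaic of principal cells, which take up water under vasopressin and sodium under aldosterone, and of intercalated cells, which secrete acid (type A) or bicarbonate (type B). The loop grows from the nephron progenitors and the collecting duct from the ureteric bud, so the segments also differ in embryonic origin.

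Levels are given as TPM, each transcript's share of a library per unit of its length, scaled to the same total in each library, so they can be compared between genes, and read depth is unknown. The pieces of a mouse were averaged as log2(TPM + 1), and a mouse value is that average returned to TPM. Values written as mean ± SD are over the 5 mice of a segment (n = 5), and lists of single values follow mice 1 to 5 in order. A difference is always CTAL minus CCD on the log2(TPM + 1) scale, which understates the change of low genes, so a positive value means higher in CTAL.

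The markers of both labels were present where they should be. Slc12a1 was at 5295, 5971, 5795, 6066 and 7529.5 TPM in CTAL mice 1 to 5, and 0.78, 7.96, 1.61, 1.67 and 2.19 TPM in CCD mice 1 to 5. Aqp2, the vasopressin-regulated water channel, was at 6.23, 5.6, 5.8, 4.11 and 4.11 TPM in CTAL mice 1 to 5, and 17021, 12274, 12632, 13781 and 14148 TPM in CCD mice 1 to 5. Each marker was high in the mice of its own segment and low in those of the other, with no overlap. Across 14418 genes, libraries of 1 segment from different mice correlated at 0.979 to 0.986 in CTAL and 0.979 to 0.988 in CCD (Pearson's r over genes, which are not independent), the 5 pairs of pieces from 1 mouse at 0.982 to 0.989, and libraries of different segments at 0.832 to 0.853. Each CTAL mouse had 12798 to 13214 genes at 1 TPM or more, and each CCD mouse 13375 to 13813. The 10 most abundant genes of each mouse, of any kind, held 13.4 to 14.7% of all TPM in the CTAL mice and 7.93 to 9.09% in the CCD mice. Libraries stood apart in single gene groups: CCD mouse 2 was highest for 6 of the 7 early response genes below, CCD mouse 4 was highest for proximal tubule genes, and mice 1 and 3 of both segments differed from the others in clock genes, as the closing section gives.

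Of 14418 genes kept (1 TPM or more in at least 3 of the 10 mice), 3040 (21.1%) differed at an adjusted p under 0.05 and a log2 difference of at least 1. CTAL was higher for 1030 of them (7.14% of the genes tested) and CCD for 2010 (13.9%). The median difference of all genes was -0.29, so the 2 directions are not balanced on the TPM scale. After median ratio rescaling, which moves that median to -0.03, 1447 genes were higher in CTAL and 1464 in CCD, and 1029 and 1464 of these were shared with the first count. A gene at -0.29 stands level with the median gene, and counts after that rescaling are given below where they differ. Each list's counts are to be read against the 7.14% and 13.9% of all genes tested. Differences just under 0, among them those of Kcnj1, Prkaca, Pou3f3, Mecom, Ldhb and Hoxd8, turn positive after it. In tissue pieces, fewer cells of a type and less RNA per cell cannot be told apart.

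**Figure D1:**
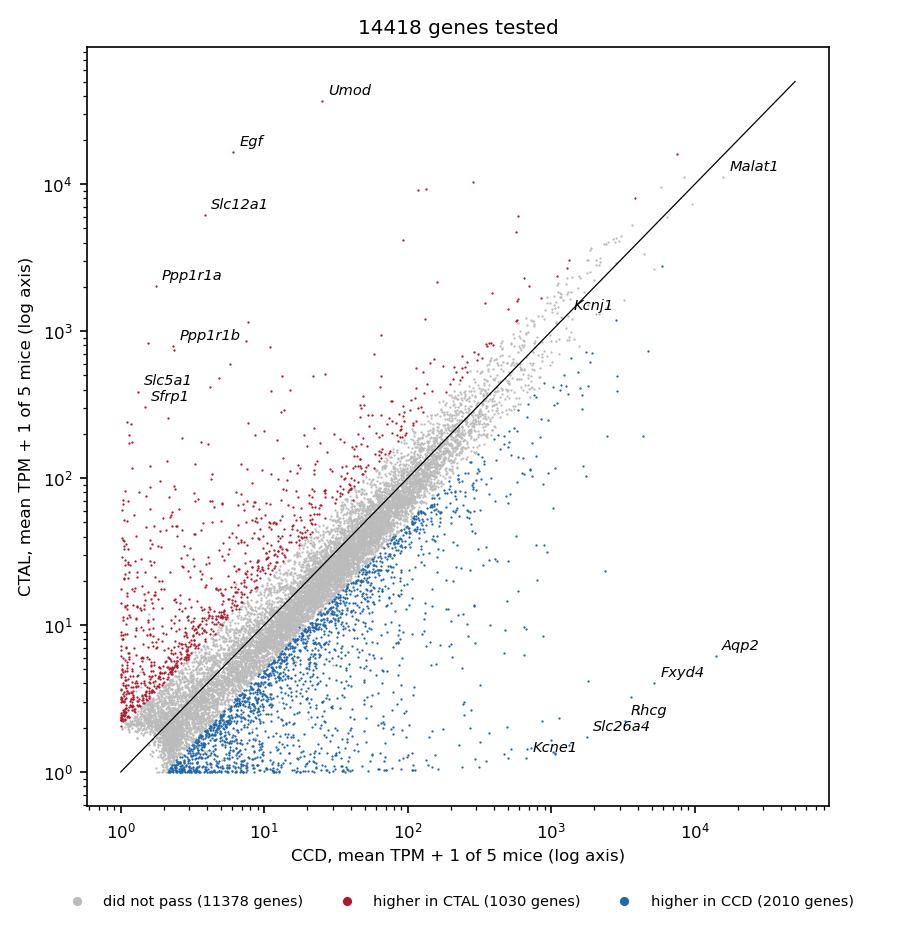
Mean TPM + 1 over 5 mice in CCD (horizontal, log axis) against CTAL (vertical, log axis) for the 14418 genes tested, coloured by the test, with the line of equal levels. Umod, Egf and Slc12a1 stand far above the line and Aqp2, Fxyd4 and Rhcg far below it, while the potassium channel gene Kcnj1 lies on it.

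The 10 genes with the largest excess in CTAL were Egf, Slc12a1, Umod, Ppp1r1a, Gpx6, Ppp1r1b, Cldn10, Slc5a1, Tmem207 and Sfrp1. Egf, the precursor of epidermal growth factor, reached 16498 ± 2264 in CTAL and 5.05 ± 1.32 TPM in CCD, a difference of 11.43 (SE 0.14, adjusted p = 5.69e-15). Umod encodes uromodulin, the main protein of normal urine. It was at 37724, 34039, 38229, 36877 and 37796 TPM in the CTAL mice and 14.3, 33.2, 24, 22.6 and 27.3 TPM in the CCD mice, and was the most abundant gene of the CTAL libraries. Ppp1r1a and Ppp1r1b encode inhibitors of protein phosphatase 1 that are switched by protein kinase A. Ppp1r1a was at 2023 ± 125 in CTAL and 0.75 ± 0.451 TPM in CCD (difference 10.21, SE 0.14, adjusted p = 8.06e-15), and Ppp1r1b at 785 ± 88.4 in CTAL and 1.33 ± 0.772 TPM in CCD (difference 8.45, SE 0.17, adjusted p = 3.71e-13). Slc5a1, the sodium-glucose cotransporter SGLT1, was at 421, 312, 397, 447 and 356 TPM in CTAL mice 1 to 5 and below 1 TPM in the CCD mice. The secreted Wnt inhibitor Sfrp1 had a difference of 7.67 (SE 0.13, adjusted p = 8.03e-14), the glutathione peroxidase gene Gpx6 one of 9.09 (SE 0.13, adjusted p = 1.48e-14), and Tmem207 one of 7.77 (SE 0.10, adjusted p = 4.84e-15). The 10 most abundant genes named for each segment pass over mitochondrial, ribosomal, unnamed and pseudogene symbols. Among those passed over, mt-Cytb was at 16075 ± 1192 in CTAL and 7540 ± 404 TPM in CCD. Other genes among these 10 of CTAL were also higher there: the kallikrein gene Klk1 (9233 ± 1313 in CTAL and 132 ± 71.9 TPM in CCD), Wfdc15b (10328 ± 458 in CTAL and 283 ± 32.5 TPM in CCD), Ly6a (9161 ± 424 in CTAL and 117 ± 13.9 TPM in CCD) and the osteopontin gene Spp1 (6095 ± 248 in CTAL and 586 ± 127 TPM in CCD). Atp5b, a subunit of ATP synthase, was abundant in both, at 11209 ± 601 in CTAL and 8451 ± 426 TPM in CCD.

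The 10 genes with the largest excess in CCD were Aqp2, Aqp3, Rhcg, Fxyd4, Hsd11b2, Slc26a4, Scnn1b, Mcoln3, Scnn1g and Spink8, of which 8 belong to the lists for water, sodium and acid handling described below. The other 2 are Mcoln3, a cation channel of lysosomes, at 0.326 ± 0.163 in CTAL and 1063 ± 159.5 TPM in CCD (difference -9.64, SE 0.12, adjusted p = 3.67e-15), and Spink8, of a family of serine protease inhibitors, at 0.369 ± 0.156 in CTAL and 1035 ± 65.1 TPM in CCD (difference -9.57, SE 0.08, adjusted p = 1.95e-16). The following genes were among the 10 most abundant of CCD, with the same kinds of symbols passed over. Pdzk1ip1 was at 735 ± 46.1 in CTAL and 4741 ± 441 TPM in CCD, the actin-binding thymosin gene Tmsb4x at 193 ± 27.6 in CTAL and 4337 ± 495 TPM in CCD and Itm2b at 2776 ± 45.9 in CTAL and 5949 ± 265 TPM in CCD, and these 3 were higher in CCD, but Itm2b not after rescaling (-0.80). Malat1, a nuclear RNA, at 11187 ± 2971 in CTAL and 15812 ± 2666 TPM in CCD, and the lactate dehydrogenase gene Ldhb, at 5972 ± 249 in CTAL and 6358 ± 369.5 TPM in CCD, did not pass the test, and nor did the kidney cadherin gene Cdh16 (2650.3 ± 178 in CTAL and 5179 ± 570.1 TPM in CCD) and the aldolase gene Aldoa (3339 ± 143 in CTAL and 4441 ± 248 TPM in CCD). Under quantile normalization, Malat1 (-1.44) and Cdh16 (-1.51) were called higher in CCD.

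Of the 12 genes of thick limb salt uptake and its partners, 7 were higher in CTAL and 0 in CCD (background 7.14% and 13.9%; 9 and 0 after rescaling), with a median difference of 1.63 against -0.29 for all genes. Besides Slc12a1 and Umod these included the apical sodium-proton exchanger Slc9a3, the channel subunit barttin (Bsnd) and Fxyd2, a modulator of the sodium pump. Slc9a3 was at 178, 187, 143, 178 and 195 TPM in the CTAL mice and 0.02, 0.43, 0.05, 0.37 and 0.146 TPM in the CCD mice. Fxyd2 was at 4738 ± 739 in CTAL and 564 ± 114 TPM in CCD (difference 3.08, SE 0.14, adjusted p = 6.28e-10). Bsnd passed narrowly, with a difference of 1.03 (SE 0.12, adjusted p = 7.22e-06). It fell short of a difference of 1 without CTAL mouse 3, CTAL mouse 4 or CCD mouse 4.

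Potassium channels of the limb showed another pattern. Kcnj1 encodes ROMK, which carries potassium to the lumen in both segments. It was at 1411, 1071, 1405, 1125 and 1275 TPM in the CTAL mice and 1618, 979, 1338, 1495 and 1074 TPM in the CCD mice. Kcnj1 thus overlapped between the groups, and the difference was -0.03 (SE 0.13, adjusted p = 0.838), with a 95% interval of -0.33 to 0.26. The basolateral potassium channel genes Kcnj16 (difference 0.92) and Kcnj10 (-0.51) did not reach a difference of 1, although Kcnj16 did after rescaling (1.22), as did the pump gene Atp1b1 (0.74 as deposited, 1.04 rescaled).

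**Figure D2:**
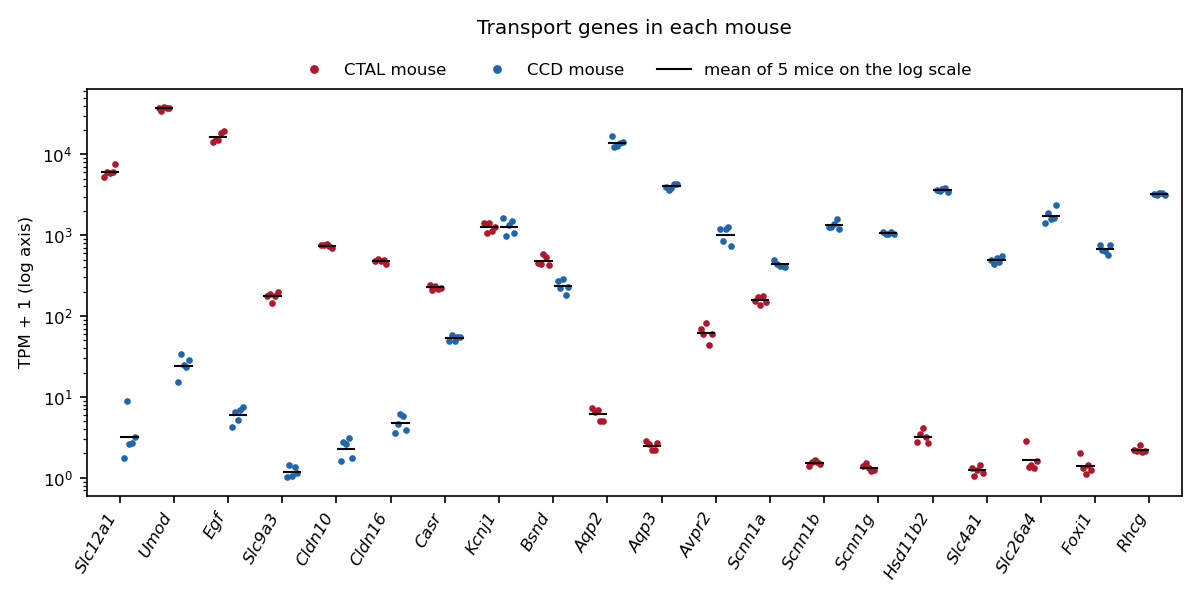
TPM + 1 (log axis) of 20 transport genes and regulators in each CTAL mouse (red) and CCD mouse (blue), with the mean of 5 mice on the log scale as a bar. Genes from Slc12a1 to Casr are higher in the CTAL mice and those from Aqp2 to Rhcg in the CCD mice, without overlap, while the mice overlap for Kcnj1.

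Claudins set which ions pass between cells. Of the 16 listed, 12 were kept, 4 were higher in CTAL (Cldn10, Cldn14, Cldn16 and Cldn19) and 4 in CCD (Cldn3, Cldn4, Cldn7 and Cldn8), and after rescaling Cldn15 joined the first and Cldn3 left the second. Of all genes tested, 7.14% were higher in CTAL and 13.9% in CCD. Cldn10, which forms a sodium pathway, was at 760.2, 757, 771, 726 and 698 TPM in the CTAL mice and 0.61, 1.78, 1.61, 2.07 and 0.744 TPM in the CCD mice. Cldn16 and Cldn19 form the calcium and magnesium pathway of the thick limb. Cldn16 was at 482 ± 24 in CTAL and 3.8 ± 1.13 TPM in CCD (difference 6.68, SE 0.13, adjusted p = 3.28e-13), and Cldn19 at 389.7 ± 48.8 in CTAL and 10.1 ± 5.68 TPM in CCD (difference 5.28, SE 0.28, adjusted p = 3.27e-09), so both were present at like levels in CTAL, with a ratio of Cldn19 to Cldn16 of 0.682 to 0.92 in its mice. Cldn14, which blocks that pathway, was at 14.9, 0.91, 6.63, 1.08 and 1.22 TPM in the CTAL mice and 0.3, 0.56, 0.618, 0.4 and 0.31 TPM in the CCD mice. CTAL mice 1 and 3 stood above the other 3 CTAL mice, and the difference of 1.49 (SE 0.51, adjusted p = 0.0186) was not called without the filter on low genes (adjusted p = 0.0713) or with a pseudocount of 5. In CCD, Cldn4 was at 0.05, 0.03, 0.05, 0 and 0.0344 TPM in the CTAL mice and 107, 205, 78.1, 76.8 and 69.9 TPM in the CCD mice. Cldn8, its partner in a chloride pathway, was at 315 ± 24.3 in CTAL and 1044 ± 134 TPM in CCD (difference -1.72, SE 0.09, adjusted p = 2.05e-09), so Cldn8 was abundant in both segments and Cldn4 near 0 in CTAL. Cldn7 had a difference of -1.52, and Cldn3 one of -1.08 that came to -0.78 after rescaling and was not called without CTAL mouse 1 or CCD mouse 2.

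Of 12 kept genes for calcium and magnesium, 3 were higher in CTAL and 6 in CCD, against 7.14% and 13.9% of all genes tested. Beside Egf, the CTAL genes were those of the calcium-sensing receptor Casr (225 ± 13.5 in CTAL and 52.6 ± 4.14 TPM in CCD, difference 2.08, SE 0.06, adjusted p = 1.73e-11) and of the parathyroid hormone receptor Pth1r. Pth1r was at 635, 624, 499, 723 and 483 TPM in the CTAL mice and 3.5, 3.55, 5.61, 7.26 and 3.88 TPM in the CCD mice. In CCD, the intracellular calcium buffer calbindin (Calb1) was at 506, 419, 529.9, 419 and 463 TPM in mice 1 to 5 and below 1 TPM in the CTAL mice. S100g, a smaller calcium-binding protein, was at 34.1 ± 5.03 in CTAL and 889 ± 409 TPM in CCD, and the CCD mice ranged from 520.0 to 1470.1 TPM. The calcium channels Trpv6 (19 ± 1.85 TPM in CCD) and Trpv5 (8.22 ± 2.35 TPM) and the sodium-calcium exchanger Slc8a1 (10.3 ± 1.92 TPM) were low in level in CCD and under 0.2 TPM in the CTAL mice. The magnesium channel Trpm6 was also called, at only 1.59 TPM in CCD, and not with a pseudocount of 5 or under quantile normalization.

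Of 10 kept genes for water channels and vasopressin, 6 were higher in CCD and 0 in CTAL (6 and 1 after rescaling, with Adcy4), with a median difference of -3.66. Aqp3, the basolateral channel through which water leaves, was at 1.87, 1.62, 1.2, 1.2 and 1.7 TPM in the CTAL mice and 3954, 3663, 3841, 4273 and 4300.2 TPM in the CCD mice. Aqp4, its companion, was at 0.269 ± 0.152 in CTAL and 67.8 ± 15 TPM in CCD. Avpr2, the vasopressin receptor that acts through cAMP, was at 67.4, 59.1, 80.1, 42.3 and 59.6 TPM in the CTAL mice and 1180.4, 847, 1174, 1245 and 724 TPM in the CCD mice. It was thus clearly present in CTAL, at a lower level (difference -4.04, SE 0.18, adjusted p = 6.02e-10). Avpr1a, the receptor that acts through calcium, was at 0.522 ± 0.328 in CTAL and 225 ± 54.5 TPM in CCD (difference -7.21, SE 0.18, adjusted p = 1.99e-12). Of the adenylyl cyclase genes, Adcy5 was higher in CCD (0.0529 ± 0.0192 in CTAL and 9.33 ± 1.19 TPM in CCD), whereas Adcy6 was at 17.5 ± 2.31 in CTAL and 21.9 ± 3.67 TPM in CCD and did not pass. The kinase subunit Prkaca had a difference of -0.07 (95% interval -0.21 to 0.06).

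Of 11 genes for the epithelial sodium channel and its mineralocorticoid control, 8 were higher in CCD and 0 in CTAL, with a median difference of -2.41. Scnn1b and Scnn1g encode the beta and gamma subunits of the channel. Scnn1b was at 0.4, 0.58, 0.66, 0.559 and 0.477 TPM in the CTAL mice and 1274, 1261, 1363, 1565 and 1199 TPM in the CCD mice. Scnn1g was at 0.39, 0.54, 0.315, 0.225 and 0.249 TPM in the CTAL mice and 1095, 1033, 1023, 1086 and 1037 TPM in the CCD mice. The alpha subunit gene Scnn1a was at 151, 170.4, 135, 178 and 146 TPM in the CTAL mice and 489, 443, 420.5, 419 and 405 TPM in the CCD mice. Its difference was -1.48 (SE 0.08, adjusted p = 3.87e-09), against -9.76 and -9.62 for the other subunits, and Scnn1a was thus also present in CTAL. The ratio of Scnn1a to Scnn1g was 0.386 to 0.446 in the CCD mice and 316 to 792 in the CTAL mice. Hsd11b2, the enzyme that keeps glucocorticoids from the mineralocorticoid receptor, was at 2.23 ± 0.588 in CTAL and 3594 ± 160.1 TPM in CCD (difference -10.14, SE 0.10, adjusted p = 9.05e-16). The receptor gene itself, Nr3c2, was at 16 ± 2.76 in CTAL and 65.2 ± 3.97 TPM in CCD (difference -1.98, SE 0.10, adjusted p = 2.85e-09). Nedd4l, the ligase that removes the channel from the membrane, was at 59.3 ± 4.11 in CTAL and 319.9 ± 24.1 TPM in CCD. Fxyd4, a modulator of the sodium pump, was at 3.77, 3.66, 3.57, 2.29 and 1.83 TPM in the CTAL mice and 5282, 4763, 5469, 5856 and 4822 TPM in the CCD mice, the reverse of Fxyd2. The proteases Prss8 (-0.46) and St14 (-0.74) and the steroid target Tsc22d3 (-0.98) did not reach a difference of 1. Tsc22d3 was called as higher in CCD without CTAL mouse 1 (-1.15), CCD mouse 3 (-1.01) or CCD mouse 5 (-1.04).

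All 19 listed genes of intercalated cells were higher in CCD: 10 of 10 shared by the types (median difference -6.90), 5 of 5 of type A (-7.09) and 4 of 4 of type B (-8.40). After rescaling, 1 of the 19, the proton pump subunit Atp6v0a4, fell just short of a difference of 1 (-1.30 as deposited). Foxi1, the transcription factor that specifies intercalated cells, was at 1.02, 0.31, 0.128, 0.435 and 0.259 TPM in the CTAL mice and 750.0, 657, 642, 574 and 756 TPM in the CCD mice. For type A, the basolateral anion exchanger Slc4a1 was at 0.34, 0.04, 0.245, 0.439 and 0.145 TPM in the CTAL mice and 497, 445, 520.0, 459 and 557 TPM in the CCD mice. The type A genes Kit (318 ± 46.3 TPM in CCD), Aqp6 (147 ± 10.9 TPM) and Dmrt2 (89.3 ± 2.46 TPM) were likewise under 1 TPM in the CTAL mice, and Adgrf5, an adhesion receptor, was at 11.9 ± 2.59 in CTAL and 182 ± 30.1 TPM in CCD. Slc26a4 encodes pendrin, the chloride-bicarbonate exchanger of type B cells. It was at 1.88, 0.37, 0.456, 0.313 and 0.617 TPM in the CTAL mice and 1429.6, 1886, 1572, 1608 and 2341 TPM in the CCD mice. The exchanger Slc4a9 (864 ± 143 TPM in CCD), the receptor Insrr (352 ± 49.6 TPM) and the homeobox gene Hmx2 (312 ± 61.1 TPM) followed it, as did Hepacam2 (365 ± 62.4 TPM) of the shared list. The mean level of Slc26a4 in CCD was above that of Slc4a1, as a description of 2 genes and not of cell numbers.

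Rhcg and Rhbg, the apical and basolateral ammonia channels, were at 1.23 ± 0.188 in CTAL and 3238 ± 85.4 TPM in CCD and at 0.662 ± 0.201 in CTAL and 991 ± 42 TPM in CCD. Carbonic anhydrase 2 (Car2) was at 494 ± 29.9 in CTAL and 2873 ± 181 TPM in CCD, and so was well above 0 in CTAL. The proton pump has subunit forms used mainly by acid-secreting cells and forms used by all cells. The specialised forms Atp6v1g3 (-8.98), Atp6v0d2 (-6.17) and Atp6v1c2 (-5.69) had large differences. Atp6v1b1 was at 123.21, 222, 189.9, 152 and 171 TPM in the CTAL mice and 619, 1226, 549.6, 535 and 724 TPM in the CCD mice. It was therefore not low in CTAL, and CCD mouse 2 stood above the other CCD mice. Of the 9 common subunits and helpers, 4 were higher in CCD (Atp6ap2, Atp6v0d1, Atp6ap1 and Atp6v1a) and 0 in CTAL, also after rescaling. Atp6v1b2, the form that replaces Atp6v1b1 in most cells, was at 137 ± 6.02 in CTAL and 177 ± 15.9 TPM in CCD (difference -0.36, 95% interval -0.50 to -0.23). The ratio of Atp6v1b1 to Atp6v1b2 was 0.869 to 1.72 in the CTAL mice and 2.87 to 7.26 in the CCD mice.

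Promoters were read for letters bound by factors of these segments, in RefSeq windows (GRCm38.p6) from 250 bases before to 50 after each gene's start, on both strands. A gene with several starts was counted if any of its windows matched, which favours genes with many, such as Sgk1 (6 windows) and Kcnj16 (4). The forkhead letters TGTTTAC, which Foxi1 and its relatives can bind, stood in 3.3% of the genes tested, 3.21% of those higher in CCD and 4.38% of those higher in CTAL (4.05% of all genes), where 10413 of the genes tested and 27025 genes in all had such a promoter. They stood in 1 of the 13 intercalated genes found in the table (Atp6v1b1), in 1 of 15 genes for water and sodium (Avpr2) and in 1 of 7 of the thick limb salt genes (Slc12a1). The GATA letters AGATAA stood in 7.69% of the genes tested, 9.62% of those higher in CCD and 9.18% of those higher in CTAL (12.7% of all genes), and in 3 of 15 genes for water and sodium, Aqp2 among them. They also stood in 1 of the 13 intercalated genes (Atp6v1b1) and in 1 of 7 of the thick limb salt genes (Kcnj16). The cAMP response element TGACGTCA was found in 3.54% of the genes tested, 2.94% of those higher in CCD and 1.64% of those higher in CTAL (2.03% of all genes). It stood in 0 of the 13 intercalated genes, 0 of 15 genes for water and sodium and 0 of 7 thick limb salt genes. The grainyhead letters AACCGGTT were in 0.269% of the genes tested, 0.334% of those higher in CCD and 0.274% of those higher in CTAL (0.174% of all genes), and the oestrogen-related receptor letters TCAAGGTCA in 0.327% of the genes tested, 0.401% of those higher in CCD and 0.274% of those higher in CTAL (0.466% of all genes). In these lists, the grainyhead letters stood in 0 genes and the receptor letters in 1, Sgk1 of the genes for water and sodium. The shares are descriptions without a test, and a match is not a bound site. Only the exact letters inside these windows were counted, so a gene without a match may still hold a similar or more distant site. The 4 stretches printed here are shown because their genes mark the segments' tasks, with the matched letters in capitals, read 5′ to 3′ on the plus strand: Aqp2 at chr15:99578829-99578884 (GATA letters in reverse, starting 202 bases before the start), Atp6v1b1 at chr6:83742894-83742950 (forkhead letters, 98 bases before), Avpr2 at chrX:73891946-73892002 (forkhead letters, 131 bases before) and Slc12a1 at chr2:125152350-125152403 (forkhead letters, 228 bases before).
Aqp2: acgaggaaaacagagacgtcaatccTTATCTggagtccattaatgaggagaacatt
Atp6v1b1: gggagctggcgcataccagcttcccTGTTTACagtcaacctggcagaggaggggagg
Avpr2: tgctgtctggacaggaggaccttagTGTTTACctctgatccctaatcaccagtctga
Slc12a1: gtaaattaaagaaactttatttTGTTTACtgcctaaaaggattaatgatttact

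WNK kinases tune salt transporters, NKCC2 among them, through the kinase SPAK. Of 8 kept genes of this pathway, 2 were higher in CTAL and 0 in CCD, against 7.14% and 13.9% of all genes tested. Wnk1 was at 94.2, 115, 149, 137 and 155 TPM in the CTAL mice and 24.3, 24.5, 20.3, 19.7 and 23.5 TPM in the CCD mice. Wnk4 was at 409 ± 59.7 in CTAL and 113 ± 14.3 TPM in CCD (difference 1.84, SE 0.11, adjusted p = 1.02e-08). The SPAK gene Stk39 was at 98.4 ± 9.12 in CTAL and 181 ± 14 TPM in CCD and its difference of -0.87 did not reach 1. Among 9 kept potassium channel genes, 2 were higher in CTAL and 2 in CCD (3 and 2 after rescaling, with Kcnj16), against 7.14% and 13.9% of all genes tested. Kcnt1, a channel gated by sodium, was at 29.8, 33.1, 14.7, 14.4 and 37.5 TPM in CTAL mice 1 to 5 and below 1 TPM in the CCD mice. The other CTAL gene was Kcnk1 (237 ± 31.6 in CTAL and 107 ± 8.29 TPM in CCD). Kcnq1 and its accessory subunit Kcne1 were higher in CCD: Kcnq1 was at 58.8 ± 6.27 in CTAL and 289.6 ± 14.2 TPM in CCD, and Kcne1 at 0.14, 0.2, 0.429, 0.21 and 0.234 TPM in the CTAL mice and 667, 655, 728, 636 and 652 TPM in the CCD mice. Kcnma1, the large-conductance channel, and its subunit genes Kcnmb2, Kcnmb3 and Kcnmb4 stayed below 1 TPM in the 10 mice.

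Further acid and base genes went both ways, with 3 of 15 higher in CTAL and 7 in CCD (4 and 5 after rescaling), against 7.14% and 13.9% of all genes tested. Carbonic anhydrase 4 (Car4), which is anchored to the membrane, was at 413 ± 29 in CTAL and 3.21 ± 3.34 TPM in CCD (difference 6.88, SE 0.33, adjusted p = 1.31e-09), and the bicarbonate transporter Slc4a7 at 4.88 ± 0.95 in CTAL and 1.2 ± 0.428 TPM in CCD. Carbonic anhydrase 12 (Car12) had the reverse pattern, with 102 ± 18.5 in CTAL and 1748 ± 267 TPM in CCD (difference -4.08, SE 0.13, adjusted p = 1.95e-11). The sodium-proton exchanger Slc9a4 was at 0.031 ± 0.0361 in CTAL and 23.8 ± 1.37 TPM in CCD, the mirror of Slc9a3. Slc4a4, Slc4a5, Slc26a7 and Slc26a6 were also among the CCD genes, at 5.87 to 13 TPM there, and Slc26a6 (-0.87) fell short of 1 after rescaling, while Car15 rose past it. Slc4a4, Slc4a7, Slc26a6 and Slc26a7 lost their calls with a pseudocount of 5.

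Transcription regulators known from the ureteric bud were nearly all higher in CCD. Of 12 kept regulators and signals of the ureteric bud and collecting duct, 11 were higher in CCD and 0 in CTAL, with a median difference of -2.13, and 10 after rescaling, when Grhl2 fell to -0.98. The zinc finger factors Gata3 and Gata2 had the largest differences. Gata3 was at 0.17, 0.13, 0.145, 0.045 and 0.0941 TPM in the CTAL mice and 135, 136, 119.9, 164 and 135 TPM in the CCD mice. Gata2 was at 1.66 ± 0.428 in CTAL and 274 ± 35.8 TPM in CCD (difference -6.70, SE 0.12, adjusted p = 1.12e-13). Tfcp2l1, a regulator of collecting duct cell types, was at 76.4 ± 3.47 in CTAL and 365 ± 30.4 TPM in CCD, and the ETS factors Ehf at 31.4 ± 2.71 in CTAL and 175 ± 29.4 TPM in CCD and Elf5 at 0.005 ± 0.00866 in CTAL and 10.6 ± 3.37 TPM in CCD. Wnt9b, a signal of the ureteric bud, was at 0.807 ± 0.196 in CTAL and 17.8 ± 3.57 TPM in CCD, whereas Wnt7b (17.9 ± 3.16 in CTAL and 25.7 ± 4.09 TPM in CCD) did not pass.

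Of 18 kept loop and general tubule regulators, 6 were higher in CTAL (Irx1, Irx2, Irx3, Sim2 and Esrrb among them) and 4 in CCD (Lhx1, Pax2, Pax8 and Tfap2a), and rescaling added Tfap2b and Foxq1 to the first. Of all genes tested, 7.14% were higher in CTAL and 13.9% in CCD. Pax2 lost its call under quantile normalization (-0.97) and with a pseudocount of 5 (-0.53), and Tfap2a with a pseudocount of 5 (-0.62). Irx2, of the Iroquois family that patterns the middle of the nephron, was at 87.7, 81.9, 68.9, 75 and 82.3 TPM in the CTAL mice and 0.01, 0.71, 0.177, 0.52 and 0.265 TPM in the CCD mice. Sim2 was at 50.7 ± 2.69 in CTAL and 0.054 ± 0.0415 TPM in CCD, and its relative Sim1 at 18.4 ± 2.65 in CTAL and 24.4 ± 4.44 TPM in CCD with a difference of -0.38 that did not pass. Esrrb was at 9.8 ± 1.23 in CTAL and 0.0419 ± 0.0292 TPM in CCD, whereas the related receptor Esrrg was at 57.4 ± 5.83 in CTAL and 76.3 ± 3.53 TPM in CCD (difference -0.41, 95% interval -0.57 to -0.25). Lhx1 was at 0.142 ± 0.0917 in CTAL and 21.9 ± 2.26 TPM in CCD, and Pax8 at 89.1 ± 6.5 in CTAL and 278 ± 53.6 TPM in CCD. Pou3f3 and Mecom did not pass (95% intervals of the difference -0.41 to 0.18 and -0.20 to 0.12).

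The Hox genes, which keep a record of position along the body axis, split by cluster. Of 23 identifiers kept for 39 Hox symbols, 10 were higher in CTAL and 7 in CCD (10 and 6 after rescaling), against 7.14% and 13.9% of all genes tested. In the Hoxa cluster 5 of 6 kept genes and in the Hoxc cluster 4 of 4 were higher in CTAL, and 0 in CCD. In the Hoxb cluster 4 of 7 were higher in CCD and 0 in CTAL. The Hoxd cluster held both directions: Hoxd3 and Hoxd4 (a symbol of 2 identifiers) were higher in CCD, Hoxd10 was higher in CTAL, and Hoxd8 and Hoxd9 did not pass. Hoxd10 was at 65, 60.8, 66, 69.5 and 68.9 TPM in the CTAL mice and 5.48, 1.98, 5.18, 4.49 and 3.38 TPM in the CCD mice. Hoxd3 was at 3.87, 4.12, 3.31, 4.5 and 4.55 TPM in the CTAL mice and 51.7, 50.7, 45.4, 45.5 and 48.4 TPM in the CCD mice. Between them in the cluster, Hoxd8 was abundant in both, with 262 ± 12.3 in CTAL and 317 ± 22.6 TPM in CCD. Hoxa9 was at 48.6 ± 3.34 in CTAL and 2.76 ± 0.782 TPM in CCD, Hoxc10 at 12.7 ± 0.455 in CTAL and 0.107 ± 0.0351 TPM in CCD and Hoxb9 at 11.5 ± 0.466 in CTAL and 80.5 ± 3.46 TPM in CCD. Hox genes overlap antisense transcripts, and whether strand was used in the quantification is not given in the sources used here.

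**Figure D3:**
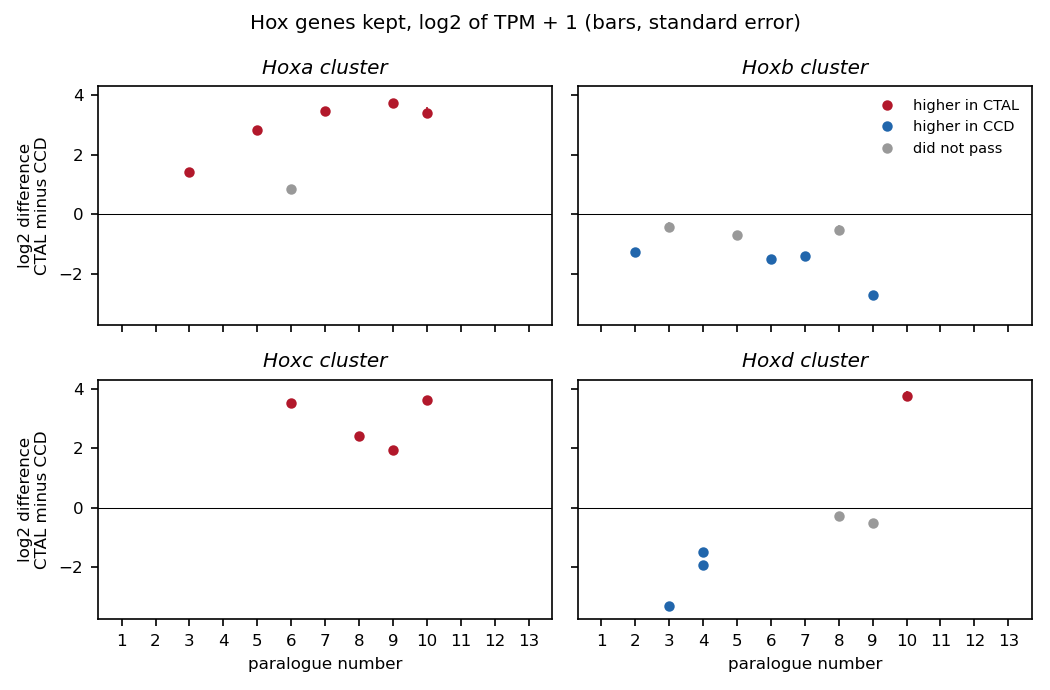
Log2 difference (CTAL minus CCD) of the kept Hox genes by paralogue number, 1 panel per cluster, with standard errors mostly smaller than the points. Kept Hoxa and Hoxc genes lie above 0, Hoxb genes below it, and the Hoxd cluster runs from -3.29 at Hoxd3 to 3.77 at Hoxd10.

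Of 16 kept genes for hormone and paracrine receptors and their ligands, 4 were higher in CTAL and 8 in CCD (5 and 8 after rescaling, with P2ry2), against 7.14% and 13.9% of all genes tested. The prostaglandin E2 receptors parted: Ptger3, which lowers cAMP, was at 563, 412, 552, 463 and 543 TPM in the CTAL mice and 20.4, 24.7, 28.3, 22.2 and 31.9 TPM in the CCD mice. Ptger1, which acts through calcium, was at 2.11 ± 0.442 in CTAL and 89.1 ± 14.8 TPM in CCD (difference -4.85, SE 0.13, adjusted p = 3.5e-12), and Ptger4 at 4.49 ± 0.507 in CTAL and 19.4 ± 0.713 TPM in CCD. The synthesis gene Ptgs1 was at 7.43 ± 2.1 in CTAL and 262 ± 16.3 TPM in CCD, without overlap. Glucagon acts on the thick limb, and its receptor Gcgr was at 490.2 ± 28.4 in CTAL and 63.6 ± 7.25 TPM in CCD (difference 2.93, SE 0.08, adjusted p = 3.34e-12). Of the receptors of the epidermal growth factor family, Erbb4 was higher in CTAL (29.6 ± 5.83 in CTAL and 4.56 ± 1.52 TPM in CCD) and Egfr in CCD (6.44 ± 0.611 in CTAL and 22 ± 3.06 TPM in CCD), while Erbb3 had a difference of -0.60. Ednrb (34.1 ± 3.75 TPM in CCD), the adenosine receptor Adora1 (38.3 ± 7.06 TPM), Hpgd and Bdkrb2 were the remaining CCD genes, the last not under quantile normalization or with a pseudocount of 5. Agtr1a, the angiotensin receptor, was called for CTAL at a level of only 1.83 ± 0.372 TPM, and not with a pseudocount of 5 or without CCD mouse 2. Of genes known from the macula densa, a small patch at the end of the limb, Nos1, Ptgs2 and Pappa2 stayed below 0.5 TPM in the 5 CTAL mice, and the 1 kept gene, Robo2, was at 1.3 ± 0.42 in CTAL and 0.336 ± 0.0584 TPM in CCD and did not pass.

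Of 9 keratin, cadherin and surface genes, 6 were higher in CCD and 0 in CTAL (4 and 0 after rescaling), against 13.9% and 7.14% of all genes tested. Krt18 was at 13.6 ± 3.63 in CTAL and 493 ± 63.9 TPM in CCD (difference -5.11, SE 0.16, adjusted p = 1.51e-11) and its partner Krt8 at 74.1 ± 8.5 in CTAL and 251 ± 20.6 TPM in CCD. Krt7, Krt19, Muc1 and Cdh1 were the others, and Krt7 (-0.83) and Cdh1 (-0.80) fell short of 1 after rescaling. Of 11 kept Notch pathway genes, 7 were higher in CCD (5 after rescaling) and 0 in CTAL, against 13.9% and 7.14% of all genes tested. Notch signalling keeps principal and intercalated cells apart. The ligand Dll1 was at 0.87, 1.08, 0.922, 1.09 and 0.989 TPM in the CTAL mice and 46.5, 84.6, 57, 76.7 and 67.6 TPM in the CCD mice. The ligand Jag1 was at 12.6 ± 2.47 in CTAL and 35.4 ± 2.1 TPM in CCD, the target Hes1 at 63.4 ± 11.6 in CTAL and 150.3 ± 35.1 TPM in CCD (difference -1.22, and -0.92 rescaled) and Heyl at 0.351 ± 0.148 in CTAL and 21.3 ± 2.52 TPM in CCD. Notch1 did not pass (95% interval -0.70 to 0.07).

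Of 14 fatty acid oxidation genes, 4 passed (Acadm, Acadvl, Acadl and Cpt1a), all higher in CTAL, and 6 after rescaling. By the adjusted p alone, without a minimum difference, 13 of 14 were higher in CTAL, where 20.8% of the genes tested were, and the list's median was 0.66. Acadm, the medium-chain acyl-CoA dehydrogenase, was at 621, 612, 517, 569.7 and 539 TPM in the CTAL mice and 249, 248, 249, 245 and 255 TPM in the CCD mice. Cpt1a, which admits long-chain fatty acids to mitochondria, was at 439 ± 73.8 in CTAL and 195 ± 36.7 TPM in CCD (difference 1.17, SE 0.13, adjusted p = 5.17e-06). Acadl lost its call without any 1 of 4 mice (CTAL 2, CTAL 4, CCD 1 or CCD 3), with differences just under 1.

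Of 80 kept identifiers of nuclear-encoded respiratory chain subunits, 5 passed as higher in CTAL and 1 in CCD, a share in CTAL close to the 7.14% of all genes tested. Of the 80, 78 had a positive difference, as did 31.4% of all genes tested, and 76 were higher in CTAL by the adjusted p alone, as were 20.8% of all genes tested. Their median was 0.59, against -0.29 for all genes, with medians of 0.62 for complex I, 0.50 for II, 0.62 for III, 0.62 for IV and 0.54 for V. The number past a difference of 1 depended on scaling, with 25 after median ratio rescaling and 4 after quantile normalization. The 1 called higher in CCD was Cox7a1, the form of a complex IV subunit typical of muscle and heart, at 164, 169.9, 130.5, 93.2 and 133 TPM in the CTAL mice and 556, 622, 573, 513 and 641 TPM in the CCD mice. Of the protein genes of the mitochondrial genome, 7 of 13 were kept, 3 were higher in CTAL (mt-Co1, mt-Cytb and mt-Nd4), and the median was 0.92, 1.22 after rescaling with 6 called, and 0.55 after quantile normalization with 0 called. The other 6 (mt-Co2, mt-Co3, mt-Atp6, mt-Atp8, mt-Nd3 and mt-Nd4l) are listed at 0 in the 10 mice. Cells use these genes throughout, so the listed 0 is not a level.

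Of 18 kept glycolysis identifiers, 3 were higher in CCD and 0 in CTAL, a share in CCD close to the 13.9% of all genes tested, and the list's median of -0.27 was close to that of all genes. Pfkfb3, which drives the pathway through its regulatory sugar phosphate, was at 2.59, 7.4, 2.68, 7.11 and 10.5 TPM in the CTAL mice and 60.6, 86.9, 64.1, 90.9 and 85.3 TPM in the CCD mice. The lactate dehydrogenase gene Ldha was at 424 ± 35.7 in CTAL and 1266 ± 174 TPM in CCD (difference -1.57, SE 0.09, adjusted p = 1.16e-08) and the glucose carrier Slc2a1 at 131 ± 15.2 in CTAL and 411 ± 24.4 TPM in CCD (difference -1.65, SE 0.08, adjusted p = 9.48e-10). Pkm was at 1226 ± 96.8 in CTAL and 1206 ± 90.9 TPM in CCD (95% interval of the difference -0.12 to 0.17). Of 5 kept creatine genes, 2 were higher in each segment (3 in CTAL and 1 in CCD after rescaling). Of all genes tested, 7.14% were higher in CTAL and 13.9% in CCD. Ckb, the creatine kinase of the cytosol, was at 2624, 1847, 2844, 1544 and 1890.3 TPM in the CTAL mice and 197, 144, 192, 107 and 149 TPM in the CCD mice. Ckmt1, the kinase of the mitochondria, was at 527 ± 41 in CTAL and 1537 ± 112 TPM in CCD (difference -1.54, SE 0.07, adjusted p = 5.12e-10), so the 2 kinases were higher in opposite segments. The creatine carrier Slc6a8 was higher in CTAL (16.6 ± 1.52 in CTAL and 4.28 ± 0.333 TPM in CCD), and Gamt in CCD (1.61 ± 0.71 in CTAL and 4.77 ± 1.16 TPM in CCD). Gamt lost its call after rescaling (-0.94), under quantile normalization (-0.86) and with a pseudocount of 5 (-0.56).

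**Figure D4:**
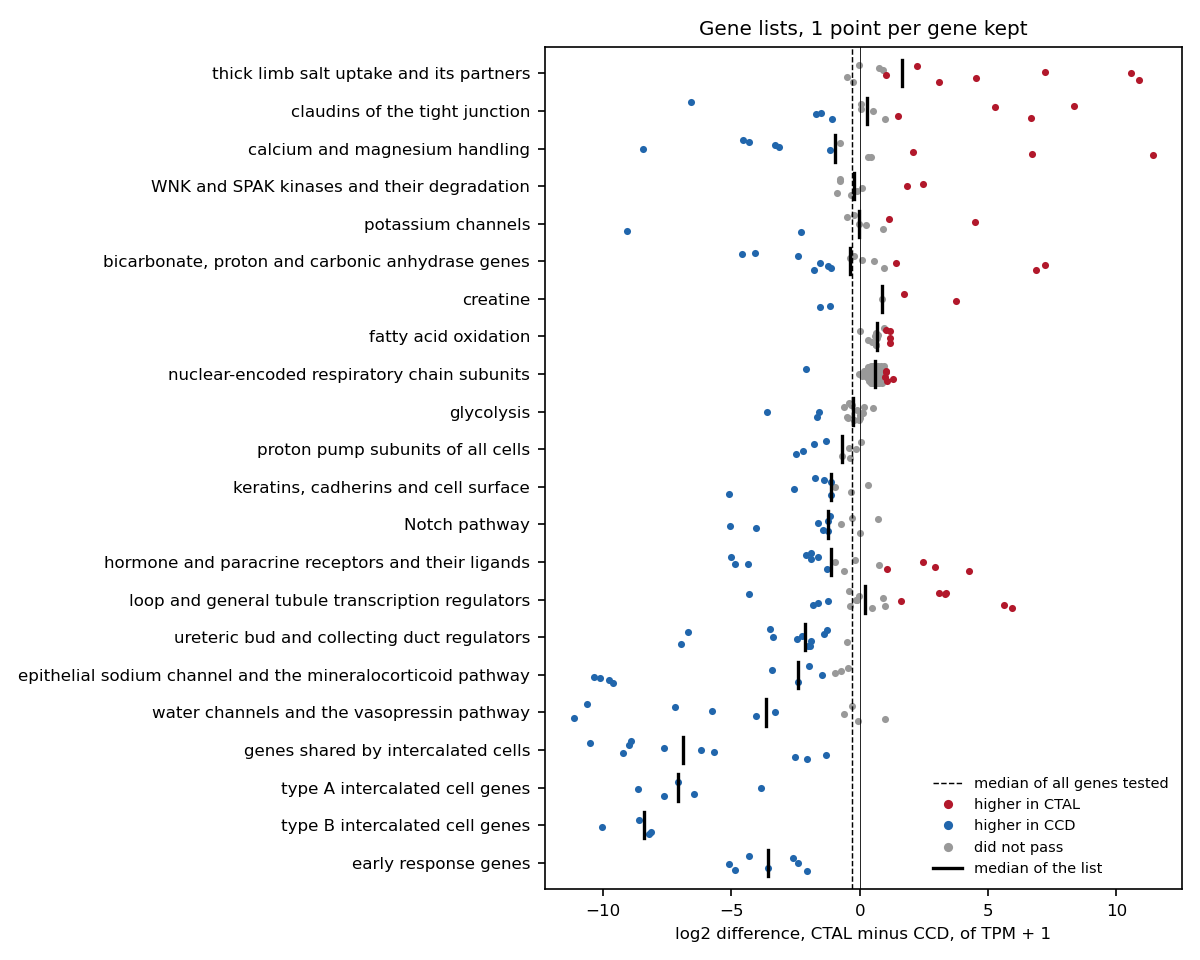
Log2 difference (CTAL minus CCD) of each kept gene of 22 lists, coloured by the test, with each list's median as a bar and the median of all genes tested (-0.29) as a dashed line. Intercalated, water and sodium genes lie far on the CCD side, respiratory chain and fatty acid oxidation genes lie mostly just on the CTAL side, with Cox7a1 (-2.09) far on the CCD side, and the claudin, calcium and acid-base lists reach both sides.

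All 7 listed early response genes, which are transcribed within minutes of a stimulus, were higher in CCD, with a median difference of -3.58. Fos was at 6.61, 24.4, 43.9, 2.8 and 18.1 TPM in the CTAL mice and 127, 1900.0, 926, 827 and 165 TPM in the CCD mice. Egr1 was at 10.1, 21.9, 18.6, 3.64 and 26.6 TPM in the CTAL mice and 138, 1403, 564, 641 and 198 TPM in the CCD mice. Junb was at 24.3, 34.5, 46.1, 16.7 and 47.8 TPM in the CTAL mice and 348, 1594, 723, 905 and 321 TPM in the CCD mice. The CCD mice lay above the CTAL mice for Fos, Egr1, Junb, Jun, Ier2, Atf3 and Fosb, but they also spread widely among themselves, with CCD mouse 2 highest for each but Atf3 and CCD mice 1 and 5 lowest for Fos and Egr1. The median SD between mice, on the log2 scale, was 1.03 in CCD and 0.40 in CTAL for these genes, against 0.12 and 0.12 for the 7450 genes at 10 TPM or more in both segments. The 2 pieces of CCD mouse 3 gave 837 and 1023 TPM of Fos, and those of CCD mouse 5 gave 154 and 177 TPM, so in each of these mice the 2 pieces lay close together. In CTAL the pieces lay further apart for Fos, at 62.2 and 30.9 TPM in mouse 3, 2.16 and 3.58 in mouse 4 and 15 and 21.8 in mouse 5. Without CCD mouse 2 the 7 genes were still called, with Fos at -4.63 (adjusted p = 0.000248). With a pseudocount of 5, Fosb, at 0.133 ± 0.13 in CTAL and 5.84 ± 7.02 TPM in CCD, lost its call (-0.88).

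Sgk1, a kinase induced by aldosterone and other steroids, spread in another order. It was at 35.9, 16, 23.3, 32.6 and 27.6 TPM in the CTAL mice and 287, 225, 518, 68.8 and 921 TPM in the CCD mice. CCD mouse 5 was highest and CCD mouse 4 lowest, and the mean difference was -3.44 (SE 0.54, adjusted p = 8.96e-05). The early response genes and Sgk1 are plotted by mouse.

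**Figure D5:**
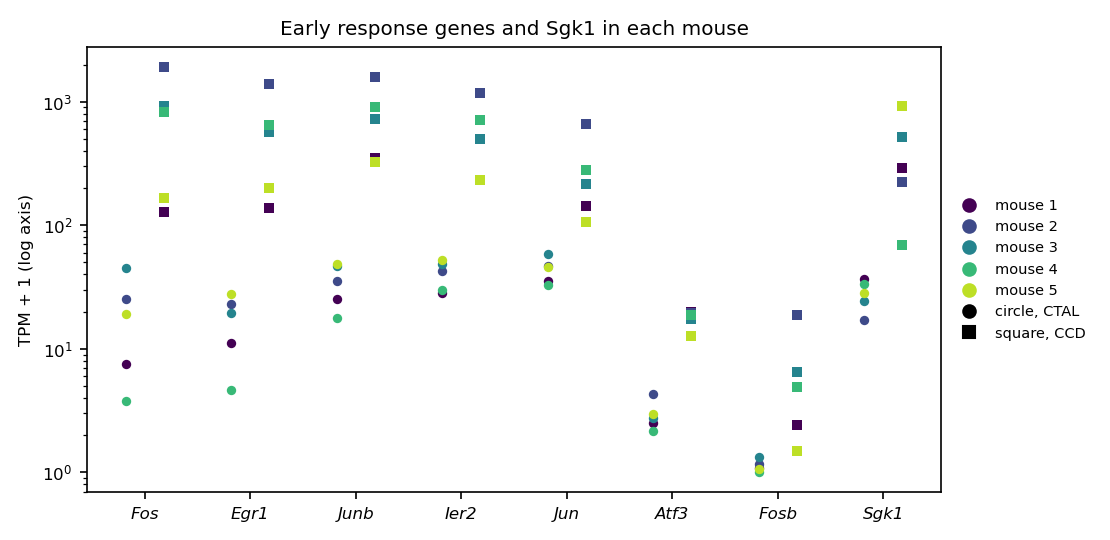
TPM + 1 (log axis) of 7 early response genes and Sgk1 in each mouse, with CTAL mice as circles, CCD mice as squares and 1 colour per mouse number. The CCD mice lie above the CTAL mice and span a wide range, from 127 to 1900.0 TPM for Fos, with CCD mouse 2 on top for most early response genes and CCD mouse 5 on top for Sgk1.

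Markers of other cells were measured beside these results. Of 7 endothelial markers, 4 were higher in CTAL (Pecam1, Kdr, Emcn and Flt1, and Plvap after rescaling), and the list summed to 211 to 473 TPM in the CTAL mice and 138 to 229.8 in the CCD mice. Of 4 kept leukocyte markers, 3 were higher in CTAL (Cd74, C1qa and Lyz2), with sums of 406 to 837 TPM in CTAL and 122 to 304 in CCD, most of it Cd74. Of 4 kept stromal markers, 2 were higher in CTAL (Pdgfrb and Col3a1) and Dcn in CCD (6.7 ± 5.56 in CTAL and 55.6 ± 3.16 TPM in CCD). Pdgfrb lost its call without CTAL mouse 1 (0.91), Col3a1 lost it with all 15 groups in the fit (limma, adjusted p = 0.0616), and Pdgfrb, Col3a1, Flt1, Pecam1 and Podxl lost it with a pseudocount of 5. The 2 kept red cell markers were higher in CTAL and uneven between mice: Hbb-bs was at 18.2, 2.49, 9.75, 0 and 4.79 TPM in the CTAL mice and 0.09, 0, 0, 0 and 0 TPM in the CCD mice. Of the podocyte markers, Podxl, which endothelium also makes, was higher in CTAL (10.4 ± 2.81 in CTAL and 3.32 ± 0.511 TPM in CCD), and Nphs1 was at 0 in the 5 CTAL mice. Proximal tubule markers did not pass (0 of 4 kept) and summed to 78.6 to 434 TPM in CTAL and 108 to 546 in CCD, where mouse 4 was highest with 437 TPM of Kap, 54.4 of Miox and 47.6 of Slc34a1. For the distal convoluted tubule, Slc12a3 and Pvalb stayed below 0.5 TPM in the 10 mice, and the 1 kept marker, Trpm6, was higher in CCD as given above. Odorant and vomeronasal receptor genes, most of which serve sensory neurons, reached 1 TPM for 1 to 3 genes in the CTAL mice and for 1 gene in each CCD mouse, and of 3 kept 1 was higher in CTAL. The part of these cells in the results was not tested.

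The same pair of tubules continues into the outer medulla as the medullary thick ascending limb (MTAL, 3 mice) and the outer medullary collecting duct (OMCD, 4 mice), male C57BL/6 mice as well, which share no sample with the cortical pair. Of the 1030 genes higher in CTAL than in CCD, 534 (51.8%) were also higher in MTAL than in OMCD, where 6.08% of the genes tested were, and this is 60.9% of the MTAL genes. Of the 2010 higher in CCD, 1662 (82.7%) were also higher in OMCD, where 28.8% were, and this is 40% of the OMCD genes. In opposite directions, 37 genes were higher in CTAL and in OMCD, and 1 was higher in CCD and in MTAL. The OMCD libraries hold many more low genes, with 16872 to 20356 genes at 1 TPM or more against 12516 to 12819 in MTAL, and 53 to 183 odorant and vomeronasal receptor genes against 1 to 2. The interaction test, which asks whether the cortical difference departs from the medullary one, called 4696 of 18279 genes (25.7%), 4247 positive and 449 negative. This depended on the processing: quantile normalization gave 1240 positive and 1165 negative. A pseudocount of 5 gave 1249 in all, and a minimum of 5 TPM gave 1968. The part of the OMCD background in the count was not tested.

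Of the 5 genes with the largest positive interactions, 4 were high in the cortical limb alone among the 4 groups. Sfrp1 was at 304 ± 58.2 TPM in CTAL, 0.478 ± 0.176 in CCD, 1.71 ± 1.59 in MTAL and 1.61 ± 1.24 in OMCD, an interaction of 7.66 (SE 0.41, adjusted p = 6.61e-10). It was thus high in the cortical limb and below 4 TPM in each MTAL mouse. Shd, an adaptor protein gene, was at 255 ± 31 TPM in CTAL, 1.14 ± 0.512 in CCD, 7.01 ± 1.74 in MTAL and 2.53 ± 1.66 in OMCD (interaction 5.65, SE 0.34, adjusted p = 2.76e-09). Pth1r was at 593 ± 101 TPM in CTAL, 4.76 ± 1.64 in CCD, 4.59 ± 2.89 in MTAL and 1.13 ± 0.146 in OMCD (interaction 5.45, SE 0.35, adjusted p = 5.26e-09), without overlap between the CTAL and the MTAL mice. Dusp9, a phosphatase of MAP kinases, was at 69.5 ± 29.1 TPM in CTAL, 0.03 ± 0.0173 in CCD, 0.511 ± 0.0357 in MTAL and 0.00495 ± 0.0099 in OMCD (interaction 5.40, SE 0.33, adjusted p = 2.88e-09). AU021092 was positive with a different pattern, highest in OMCD, at 16.7 ± 4.74 TPM in CTAL, 9.42 ± 2.87 in CCD, 14 ± 6.11 in MTAL and 386 ± 185 in OMCD (interaction 5.41, SE 0.44, adjusted p = 8.08e-08).

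In the other direction, Slc26a4 was at 1429.6, 1886, 1572, 1608 and 2341 TPM in the CCD mice and at 0.298, 9.69, 4.51 and 1.16 TPM in the 4 OMCD mice, an interaction of -8.20 (SE 0.63, adjusted p = 4.38e-08). Hmx2, of the same type B list, was at 312 ± 61.1 TPM in CCD and 1.83 ± 1.3 in OMCD (interaction -6.79, SE 0.32, adjusted p = 1.3e-10), Kcne1 at 668 ± 35.3 and 4.22 ± 1.68 (interaction -6.76, SE 0.26, adjusted p = 1.18e-11), and Tldc2 at 519 ± 42.6 and 4.05 ± 5.19 (interaction -7.42, SE 0.68, adjusted p = 3.3e-07), all 3 below 1 TPM in both limbs. Fxyd2 was higher in the limb at both levels, but unequally: it was at 4738 ± 739 TPM in CTAL, 564 ± 114 in CCD, 24241 ± 4438 in MTAL and 17.9 ± 4.92 in OMCD (interaction -7.28, SE 0.26, adjusted p = 3.05e-12). The level of Fxyd2 thus ran in the order MTAL, CTAL, CCD and OMCD, without overlap between the mice of neighbouring groups.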

How the data were processed

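The authors deposited TPM per gene for each microdissected piece, in 1 table of 54532 Ensembl identifiers with symbols. STAR 2.5.4a and RSEM 1.3.0 are named in the submitters' processing notes, without roles, and the genome build and annotation are not given in the sources used here. Per the labels' protocols, cDNA was amplified by a SMARTer kit and tagmented with Nextera XT. Since TPM keep no read numbers, counting error could not be estimated. Columns were matched to samples by name. The pieces of 1 mouse and segment were averaged as log2(TPM + 1), with a pseudocount of 1. Genes at 1 TPM or more in at least 3 mice of a fit were tested two-sided with limma 3.58.1 in R 4.3.3 (lmFit, eBayes with a trend) on the 10 mice, with Benjamini-Hochberg adjustment over all genes tested. Genes were called at an adjusted p under 0.05 and a log2 difference of at least 1. The interaction was fitted on 17 mice of 4 groups. No source ties mice to separate cages or days, so p-values measure the spread between these mice. The steps were tested on simulated data. Some listed genes are not reported here. Named genes are members of the gene lists, the 10 largest called differences in each direction, the 10 most abundant genes of each segment and the 5 largest called interactions in each direction. The largest differences had no overlap between mice and 10 TPM or more on average where higher. The interactions had 10 TPM or more on average in 1 of the 4 groups. All but the gene lists passed over unnamed, mitochondrial, ribosomal and pseudogene symbols. The members and lists were chosen with earlier results of these data known. Median ratio rescaling used 11350 genes, with factors of 0.879 to 1.15. Alternatives were other pseudocounts, filters, scalings, piece averages and fits, and each mouse left out. Promoters are from RefSeq (GRCm38.p6), matched by symbol. Tables and plots were made with Python 3.11.15, pandas 2.3.3 and matplotlib 3.10.9.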

Additional observations from a re-analysis of the deposited data

Results flagged for a closer look

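Named genes were checked for a mouse whose gap to its nearest neighbour took up an unusually large part of the group's range (Dixon's test at 95%). Chance alone gives about 1 such group in 20, and 24 of 364 gene and segment combinations were found. In CTAL, 1 mouse lay far from the other 4 for Atp6v1g3 in mouse 1 (1.01 against 0.194 to 0.424), Dcn in mouse 1 (16.5 against 2.98 to 5.92), Gamt in mouse 5 (2.83 against 1.01 to 1.51) and Gcgr in mouse 3 (440.1 against 496 to 509.7), in TPM. Likewise, CTAL mice stood apart for Hoxc10 in mouse 2 (11.9 against 12.8 to 13.1), Mecom in mouse 1 (97 against 119 to 125), Rhcg in mouse 3 (1.55 against 1.1 to 1.22) and S100g in mouse 2 (42.8 against 30.5 to 33.3), in TPM. The same held in CTAL for Sim1 in mouse 5 (23 against 16.7 to 17.7), Slc26a4 in mouse 1 (1.88 against 0.313 to 0.617) and Tsc22d3 in mouse 1 (57.5 against 28.2 to 35.9), in TPM. In CCD, 1 mouse lay far from the other 4 for Atp6ap1 in mouse 5 (1200.4 against 1060.0 to 1100.0), Atp6v1a in mouse 5 (1146 against 997 to 1021), Atp6v1b1 in mouse 2 (1226 against 535 to 724) and Car4 in mouse 4 (9.11 against 1.27 to 2.55), in TPM. Likewise, CCD mice stood apart for Cdh16 in mouse 4 (6167 against 4784 to 5076), Cldn4 in mouse 2 (205 against 69.9 to 107), Klk1 in mouse 3 (256 against 71.4 to 121) and Lyz2 in mouse 3 (6.37 against 3.18 to 3.84), in TPM. The same held in CCD for Miox in mouse 4 (54.4 against 7.09 to 17.1), Ppp1r1b in mouse 2 (2.65 against 0.62 to 1.21), Slc12a1 in mouse 2 (7.96 against 0.78 to 2.19) and Slc34a1 in mouse 4 (47.6 against 7.89 to 17.4), in TPM. A gap was also seen in CCD for Wnk4 in mouse 4 (88.4 against 114 to 123.04), in TPM. Mouse 4 was thus the far CCD mouse for the proximal tubule genes Miox and Slc34a1.

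The cortical and the medullary difference departed from each other by the interaction test for the 10 genes named for it. The interaction was 7.66 for Sfrp1, 5.65 for Shd, 5.45 for Pth1r, 5.41 for AU021092 and 5.40 for Dusp9. It was -8.20 for Slc26a4, -7.42 for Tldc2, -7.28 for Fxyd2, -6.79 for Hmx2 and -6.76 for Kcne1.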

How the results depend on the processing

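The count of 3040 genes for CTAL against CCD stayed within 1.5 times under the alternatives run but 1: with a pseudocount of 5 it was 1704, with 589 higher in CTAL and 1115 in CCD, and the larger pseudocount by construction shrinks differences of low genes. A pseudocount of 0.1 gave 3986. Scaling moved the balance: quantile normalization gave 1519 higher in CTAL and 1387 in CCD, beside the split after median ratio rescaling given above. Leaving out 1 mouse gave 2986 to 3123 genes in all, 1004 to 1053 higher in CTAL and 1952 to 2086 in CCD. The interaction count of 4696 was 1249 with a pseudocount of 5, 1968 with a minimum of 5 TPM, 2405 after quantile normalization, 2734 over protein-coding genes (fewer genes tested) and 2769 with all 15 groups in the fit. The cause was not tested where the construction does not give it. Without 1 mouse it was 3833 to 4801. No named gene that was called changed direction under these alternatives. Of the named cortical differences, 17 lost their call with a pseudocount of 5 and 9 after median ratio rescaling, which added 10. With the mouse number as a replicate block, 3046 genes were called in cortex and 4737 for the interaction. Deviations of same-numbered CTAL and CCD mice correlated at 0.01 to 0.249 over genes and those of differently numbered mice at -0.21 to 0.128. The former were higher on the whole, a hint of pairing from the data and not from the design, but 2 of 5 were not above 0.1. CCD mice 1, 2, 3 and 5 correlated best with the CTAL mouse of their number, and CCD mouse 4 did not. CTAL mice 2, 3 and 5 correlated best with the CCD mouse of their number, and CTAL mice 1 and 4 did not. The numbers were not taken to pair the mice, because the series counts 1 mouse for each number and segment. Whether same-numbered pieces share an animal was not settled. The clock genes given below hold a like hint. Of 14, mice 1 and 3 were lowest in both segments for 8 and highest in both for 3. The p-values of the clock genes are from the fit without pairing. TPM keep no depth, so values near 0 cannot be told from 0.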

Other observations

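Several genes of the circadian clock, looked at after their values were seen, varied widely between mice of the same segment. Dbp was at 10.2, 182, 6.58, 145 and 234 TPM in CTAL mice 1 to 5 and at 14, 170.2, 12.1, 141 and 152 TPM in CCD mice 1 to 5. This is a transcription factor driven directly by the clock. Arntl was at 20.6, 0.37, 24.5, 1.64 and 0.593 TPM in CTAL mice 1 to 5 and at 45.4, 11.5, 41.1, 13.1 and 14.9 TPM in CCD mice 1 to 5. It encodes BMAL1, the activator of the clock, whose RNA peaks when that of Dbp is low. Nr1d2 was at 29.8, 82.5, 20.7, 68.3 and 97.3 TPM in CTAL mice 1 to 5 and at 23.8, 69, 22.1, 71.7 and 68.5 TPM in CCD mice 1 to 5. It encodes a repressor of Arntl. Per3 was at 1.79, 14.7, 1, 10.4 and 14.5 TPM in CTAL mice 1 to 5 and at 2.7, 12.6, 2.57, 9.53 and 8.68 TPM in CCD mice 1 to 5. In both segments mice 1 and 3 were low for Dbp, Nr1d2 and Per3 and high for Arntl, and mice 2, 4 and 5 were the reverse, with no overlap within a segment. Over the 14 clock genes examined, from which these were picked, mice 1 and 3 were the lowest of 5 in both segments for 8 and the highest in both for 3. The other 3, Cry1, Per1 and Per2, did not show the same order in both segments. The difference between the segments was -0.09 for Dbp (adjusted p = 0.945), 0.18 for Nr1d2 (0.739) and -0.05 for Per3 (0.948), none of which passed the test in limma. Of 14 clock genes examined, 4 were higher in CCD, where 13.9% of all genes tested were: Arntl (-2.15, adjusted p = 0.032), Npas2 (-1.39, 0.0101), Per2 (-1.47, 0.0346) and Clock (-1.20, 7.44e-05), the last without overlap between the segments. In each segment 2 of 5 mice were thus low for Dbp, and the labels give no time of day. The same mice stood apart within CTAL for Cldn14 and within both segments for Pfkfb3, whose values are given above: mice 1 and 3 were the highest of the 5 CTAL mice for Cldn14, and the lowest of 5 in each segment for Pfkfb3. These genes are examples: mice 1 and 3 were also the highest of 5 in each segment for Ckb, Ldha and Cldn8, and the lowest for Erbb3. How many named genes had such an order was not counted. What these mice share was not tested.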
